A study of Mus musculus with 3 samples.

Results

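Imprinted genes are transcribed mainly from the allele of one parent. To describe them in mouse embryo fibroblasts (MEFs), a list of 34 imprinted genes was looked up in the RNA-seq counts, and 33 of them were found among the 21782 genes listed. Kcnq1ot1 was not in the table and is not analysed here. The list was chosen by name, not by level. The samples were 3 libraries of polyA+ RNA, each from a clone of primary MEFs of WT genotype, isolated from embryos at E12.5 and grown asynchronously in medium with 20% serum. No treatment, knock out or second condition was part of this experiment, and the sources do not say whether the clones came from separate embryos or litters, so spread between clones may be partly technical. Total counts were 25261357, 22594316 and 24791198 in clones 1, 2 and 3. Levels are given as counts per 1000000 counts (CPM) after scaling of the library sizes. A count of 0 still allows 3 counts, which are 0.121, 0.133 and 0.119 CPM in the 3 clones, and intervals and limits of this kind cover counting error only.

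Imprinted genes lie in clusters, and within a cluster a differentially methylated region, set in the germline of one parent, decides which genes each chromosome transcribes. Many clusters pair coding genes of one parental allele with a long non-coding RNA of the other. At H19 and Igf2 the choice depends on CTCF, which binds the unmethylated maternal region together with cohesin and keeps enhancers from Igf2. Several of the encoded proteins act on fetal growth, as growth factors, receptors or inhibitors of the cell cycle, and many of the genes are strongly transcribed in embryonic mesenchyme. The counts sum both alleles of a gene and carry no information on the parent of origin. Parental alleles are named here as background only.

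Fibroblast genes were abundant, with a summed level of the 8 fibroblast markers between 46100 and 57170 CPM, mostly from Col1a1 and Col1a2. The markers did not move together. Col1a1, Col1a2, Col3a1 and Pdgfrb were highest in clone 1, and Pdgfra, Thy1, Vim and S100a4 in clone 2. The clones were not alike in markers of other kinds either. Of the 9 macrophage genes, 8 were in the table, and all 8 were highest in clone 2, with summed levels of 340, 1610 and 278 CPM in clones 1, 2 and 3. All 6 proliferation genes were lowest in clone 1 (368, 723 and 609 CPM), and all 3 arrest genes were highest there (587, 411 and 464 CPM). Neural markers summed to 955, 649 and 896 CPM, lowest in clone 2, mostly from Nes (875, 564 and 821 CPM). Tubb3 was instead highest in clone 2 (72.53, 79.65 and 66.99 CPM), and Rbfox3 had 0 counts in every clone. Muscle markers summed to between 200 and 223 CPM, mostly from Acta1 and Des, with Myf5 at 0 counts in every clone. The near-even sum hides opposite movements. Acta1 was highest in clone 2 (130, 169 and 122 CPM), while Des was lowest there (71.6, 31.1 and 96.5 CPM). Actc1 and Myh3 were highest in clone 3, at 1.51 and 1.86 CPM. Cartilage markers summed to 794, 548 and 775 CPM and endothelial markers to 19.7, 10.9 and 22.7 CPM, both lowest in clone 2. The low sums followed Col2a1 (735, 487 and 724 CPM) and Emcn (12.4, 0.177 and 9.58 CPM). Acan, Sox9, Pecam1 and Cdh5 were instead highest in clone 2, the last 2 of these under 1 CPM. Epithelial markers lay between 3.38 and 6.89 CPM. In bulk RNA, fewer cells of a type and less RNA per cell cannot be told apart. The part of these markers in the differences between clones described below was not tested.

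Imprinted transcripts took 0.589%, 0.480% and 0.588% of all counts in clones 1, 2 and 3, a mean of 0.552% ± 0.0624 (SD, n = 3). Of the 33 genes, 23 reached at least 1 CPM in every clone. Means of 100 CPM or more were reached by 8 genes, namely Meg3, Gnas, Igf2, Igf2r, Rian, Grb10, H19 and Dlk1, and another 11 lay between 10 and 100 CPM. At the low end, 9 genes had a mean under 1 CPM. Divided by the length of all annotated exons, the order of the abundant genes changed. Igf2 then stood highest at 137 ± 30.5 CPM per kb, followed by H19 at 131 ± 39.8, Igf2r at 75.5 ± 18.1, Gnas at 74.5 ± 4.68, Grb10 at 69.1 ± 4.75 and Meg3 at 50.8 ± 19.7 CPM per kb (SD, n = 3). Which of Igf2 and H19 was higher depended on the clone, as it did for Igf2r with Gnas and for Igf2r with Grb10. Gnas lay above Grb10 in every clone, though by little in clone 3 (74.7 and 74.4 CPM per kb). The order of the genes also depended on the length used. With one transcript per gene in place of all exons (that of the longest coding sequence or, for non-coding genes, the longest), Gnas stood first at 223 CPM per kb and Igf2 next at 166 CPM per kb.

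**Figure D1:**
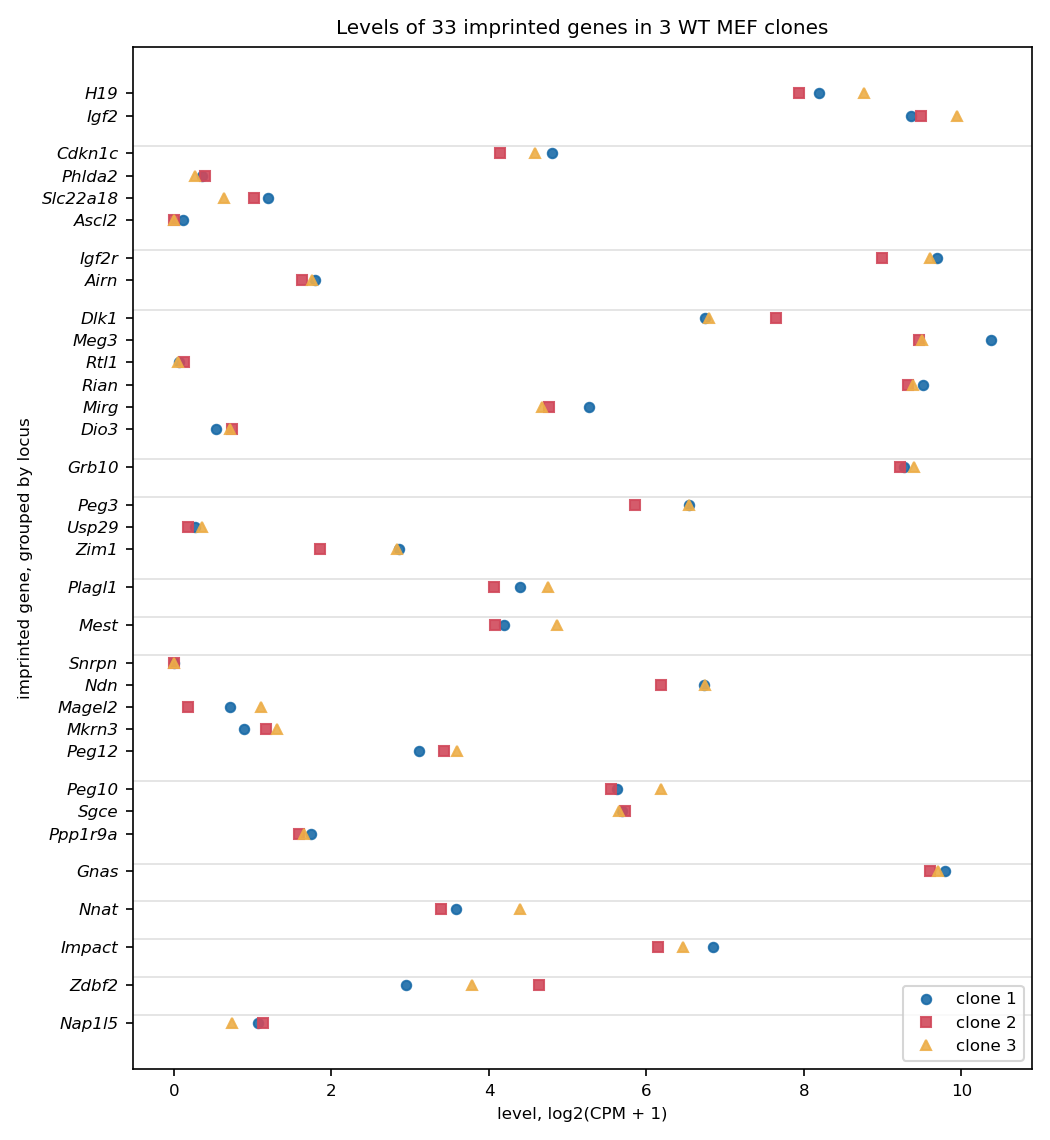
Levels of the 33 imprinted genes of the table, as log2(CPM + 1), with a circle, square or triangle for clones 1, 2 and 3 and the genes grouped by locus. Within a locus, abundant and nearly silent genes stand side by side, as for Igf2r (means of 703 CPM) and Airn (2.31 CPM).

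A count of 10 or more in each clone was found for 27 members, and only these were tested for differences between libraries. The other 6 were Phlda2, Ascl2, Rtl1, Usp29, Snrpn and Magel2. By a Pearson chi-square test that takes the scaled library sizes as the null, 21 of the 27 differed between libraries by more than counting noise (Benjamini-Hochberg adjusted over all genes tested), beside 62.5% of all 12218 genes tested. This test compares libraries and takes no account of how much clones usually vary. The spread of each gene was therefore also set against the dispersion that edgeR fitted over genes of like level, by a goodness of fit test. Here 3 of the 27 members were called, Zdbf2, Meg3 and Dlk1, beside 2.10% of all genes tested. The number called was 2 without clone 1, 0 without clone 2 (9 at an unadjusted p under 0.05) and 1 without clone 3. Of all genes tested, 1.47%, 0.0403% and 0.909% were called in these settings. For the 9 members without clone 2, no share over all genes was computed. With all 3 clones, a further 5 members reached an unadjusted p under 0.05 only, so that 8 did in all, beside 6.64% of all genes tested. The range of log2(CPM + 1) between clones had a median of 0.60 over the 27 members and of 0.28 over all genes tested, and 20 members lay above the latter. Leaving out a clone brought the members' median to 0.40 without clone 1, 0.34 without clone 2 and 0.26 without clone 3, beside 0.13, 0.17 and 0.21 over all genes tested.

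**Figure D2:**
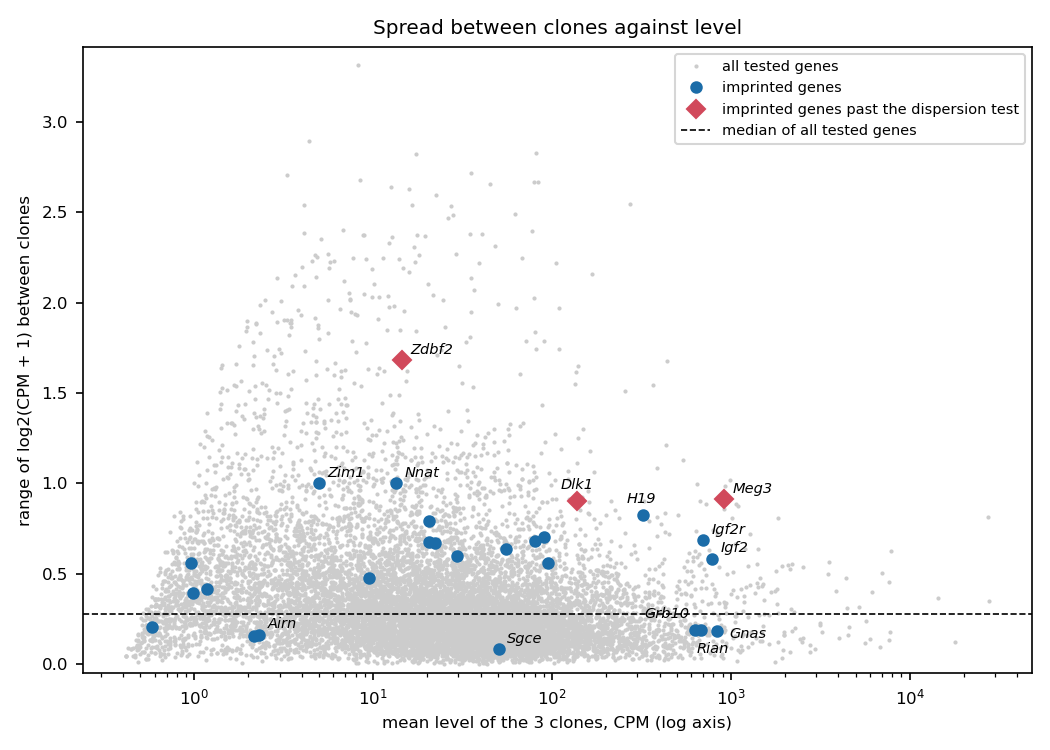
Range of log2(CPM + 1) between the 3 clones against mean CPM on a log axis, with grey points for the 12218 genes tested, blue circles for imprinted genes and red diamonds for the 3 imprinted genes called by the dispersion test. Zdbf2 stands highest among the members at 1.68, while Sgce at 0.08 lies under the dashed median of all genes tested.

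The Dlk1-Dio3 domain on chromosome 12 had the highest summed level of all loci in every clone before division by length, at 2205, 1574 and 1524 CPM. Its paternal allele carries the coding genes Dlk1, Rtl1 and Dio3, and its maternal allele carries the long non-coding RNA Meg3, the small nucleolar RNA host Rian and the microRNA host Mirg. Meg3 (109541001 to 109571726, plus strand, GRCm38) had 33051, 15910 and 18229 counts in clones 1, 2 and 3, or 1330, 706 and 722 CPM. Clone 1 stood apart from the other clones, which were close to each other. The mean was 919 ± 356 CPM, and the range of 0.91 on the log2(CPM + 1) scale passed the edgeR goodness of fit test (adjusted p = 0.0312). The call was lost whichever clone was left out (adjusted p = 0.9999 without clone 1, 0.133 without clone 2 and 0.286 without clone 3), and with the common dispersion (adjusted p = 0.388).
Dlk1 (109452823 to 109463336, plus strand), which encodes a transmembrane protein with EGF repeats related to Notch ligands, had 2642, 4502 and 2786 counts, or 106, 200 and 110 CPM. Here clone 2 was the high clone, and clones 1 and 3 were alike. The mean was 139 ± 52.8 CPM and the range 0.90 (edgeR goodness of fit, adjusted p = 0.0317). Leaving out clone 2 or clone 3 ended the call (adjusted p = 0.999 and 0.282), as did the common dispersion (adjusted p = 0.432), while leaving out clone 1 did not (adjusted p = 0.0175). Clone 2 is also the clone with the most macrophage RNA.
As a share of the counts of Dlk1 and Meg3 together, Dlk1 took 7.40%, 22.1% and 13.3% in clones 1, 2 and 3. Their 95% Wilson intervals, 7.14 to 7.68%, 21.5 to 22.6% and 12.8 to 13.7%, do not overlap. Per kb of exon, the share of Dlk1 was 33.6% ± 13.6 (SD, n = 3).
Since the dispersion test called these 2 genes of the domain, the 250 bases before and 50 after an annotated start of each are shown. They are RefSeq sequences of GRCm38.p6, at chr12:109452573-109452872 for Dlk1 and chr12:109540746-109541045 for Meg3, both on the plus strand. Capitals mark TGCCGC or its reverse complement GCGGCA, the hexamer that the imprint-keeping zinc finger protein ZFP57 binds when its CpG is methylated.
Dlk1: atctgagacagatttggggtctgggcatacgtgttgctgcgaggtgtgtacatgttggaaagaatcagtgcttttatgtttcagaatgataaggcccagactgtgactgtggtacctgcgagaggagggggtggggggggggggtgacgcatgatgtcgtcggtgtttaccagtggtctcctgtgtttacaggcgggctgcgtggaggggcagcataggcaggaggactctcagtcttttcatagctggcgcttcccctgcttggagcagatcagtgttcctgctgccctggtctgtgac
Meg3: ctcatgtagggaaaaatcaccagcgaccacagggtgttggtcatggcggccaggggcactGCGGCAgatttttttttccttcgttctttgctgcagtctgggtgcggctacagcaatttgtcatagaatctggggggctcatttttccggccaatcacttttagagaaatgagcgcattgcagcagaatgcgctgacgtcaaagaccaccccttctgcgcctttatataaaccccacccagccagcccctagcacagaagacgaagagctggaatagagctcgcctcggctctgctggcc
The Meg3 window shown holds 13 CpG and 1 hexamer, and the Dlk1 window 9 CpG and none. RefSeq gives Meg3 another window, at chr12:109545148-109545447, which is not shown and holds 1 CpG and no hexamer. Among all 32851 RefSeq windows of this length, 11.6% hold at least 1 hexamer and the median is 7 CpG. Windows were found for 27 of the 33 members, and 11 of their 42 windows (26.2%) hold the hexamer, with a median of 14.5 CpG. These windows are not all distinct. The Mest windows from bases 30737800 and 30737803 of chromosome 6 overlap nearly in full, and both count among those with the hexamer. A match describes the letters and is no evidence of binding.

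Rian, downstream of Meg3 on the same strand, was also highest in clone 1, but by less than Meg3. It had 18157, 14464 and 16841 counts, or 731, 642 and 667 CPM (680 ± 46.1 CPM), with a range of 0.19 that lies under the median of all genes tested and a difference between libraries by the chi-square test (adjusted p = 3.70e-32). Of the reads given to Meg3 or Rian, Meg3 thus took 64.5%, 52.4% and 52.0% in clones 1, 2 and 3, with 95% Wilson intervals of 64.1 to 65.0%, 51.8 to 52.9% and 51.5 to 52.5%. Clones 2 and 3 were alike and clone 1 lay above both. Which of the 2 was more abundant per length depended on the length. The Meg3 share was 56.5% ± 7.13 per kb of all exons and 41.9% ± 7.24 per kb of the longest transcripts (SD, n = 3). Mirg (109729764 to 109749460) had 938, 590 and 620 counts, or 37.8, 26.2 and 24.5 CPM, and was highest in clone 1 as well, with a range of 0.60. Its spread did not pass the dispersion test. The RefSeq window at the start of Rian holds no CpG, and that of Mirg holds 10.
The other paternal genes of the domain were close to silent. Dio3, the deiodinase that inactivates thyroid hormone, had 11, 15 and 16 counts, and Rtl1, a retrotransposon-derived gene active in placenta, had 1, 2 and 1 counts. All 3 Rtl1 counts lie under the floor of 3 counts.

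H19 and Igf2 lie side by side on chromosome 7, H19 at 142575529 to 142578143 and Igf2 at 142650766 to 142666816, both on the minus strand of GRCm38. H19 is a maternal non-coding RNA and the host of a microRNA, and Igf2 encodes a fetal growth factor made from the paternal allele. H19 had 7254, 5495 and 10909 counts in clones 1, 2 and 3, or 292, 244 and 432 CPM (323 ± 97.8 CPM). Igf2 had 16277, 16115 and 24827 counts, or 655, 715 and 983 CPM (784 ± 175 CPM). Both genes were highest in clone 3, while the lowest clone was clone 2 for H19 and clone 1 for Igf2. The ranges were 0.82 for H19 and 0.58 for Igf2. Neither passed the edgeR goodness of fit test over 3 clones (adjusted p = 0.130 and 0.914), although H19 did without clone 1 (adjusted p = 0.0178).
Of the summed counts of the pair, H19 took 30.8%, 25.4% and 30.5%, with 95% Wilson intervals of 30.2 to 31.4%, 24.9 to 26.0% and 30.1 to 31.0%. Clones 1 and 3 were thus alike in the balance of the pair, although the summed level of both genes was 947 CPM in clone 1 and 1415 CPM in clone 3. Per kb of exon, the share of H19 was 48.6% ± 3.75 (SD, n = 3), with 44.2% in clone 2 and 50.9% and 50.6% in clones 1 and 3. Per kb of 1 transcript per gene, chosen as above, the share of H19 was 45.6% ± 3.72. In GENCODE M21, 62.8% of the exon length of Igf2 is shared with a gene on the same strand, Gm49394, which was not in the table. Whether the counting set aside reads there is not known.

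Igf2r, on chromosome 17 (12682406 to 12769664, minus strand), encodes the receptor that takes IGF2 to lysosomes and is transcribed from the maternal allele. It had 20434, 11507 and 19572 counts, or 822, 510 and 775 CPM (703 ± 168 CPM). Clone 2 was the low clone, and the range was 0.69 (edgeR goodness of fit, adjusted p = 0.482). Airn, the paternal non-coding RNA that starts within Igf2r on the opposite strand and silences it there, had 61, 47 and 60 counts, or 2.46, 2.08 and 2.38 CPM. The Airn counts did not differ between libraries beyond counting noise (chi-square, adjusted p = 0.726). Igf2r took 99.7%, 99.6% and 99.7% of the counts of the pair, and per kb of exon its mean level was 118 times that of Airn. Airn is known as a mostly unspliced RNA, and these libraries measured polyadenylated RNA.

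**Figure D3:**
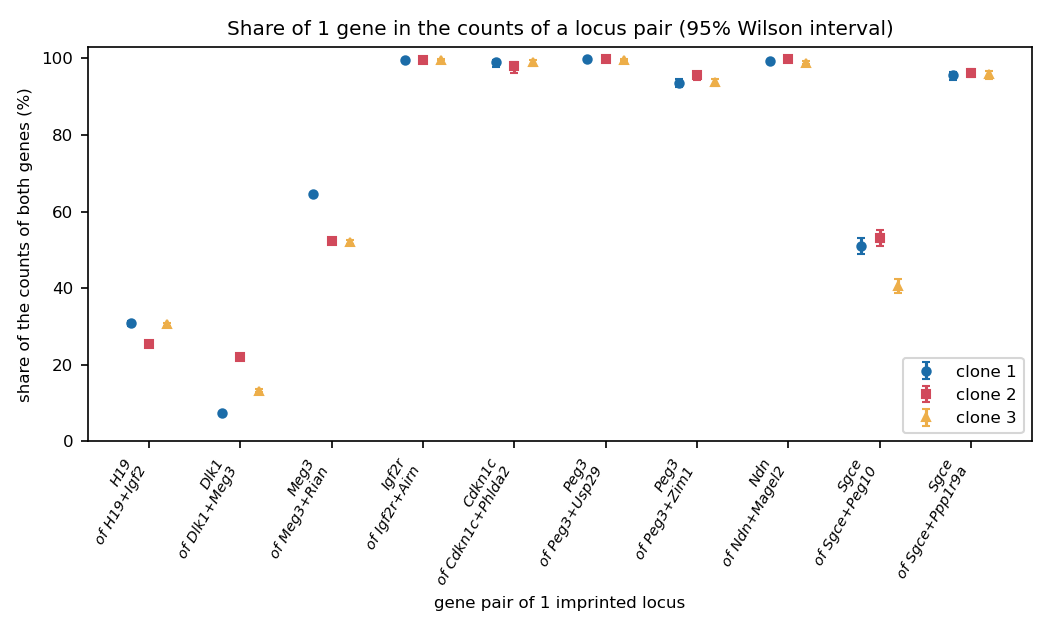
Share (%) of a gene in the summed counts of a pair of genes of the same locus, for clones 1, 2 and 3 (circle, square, triangle), with 95% Wilson intervals that cover counting error only. The intervals of all 3 clones are apart for Dlk1 with Meg3. Only 1 clone lies apart for Meg3 with Rian (clone 1), H19 with Igf2 (clone 2) and Sgce with Peg10 (clone 3). Clones 2 and 3 are apart for Ndn with Magel2, while Igf2r with Airn stays above 99% in every clone.

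The Peg3 domain on chromosome 7 holds the paternal zinc finger gene Peg3 (6703892 to 6730431, minus strand), the paternal ubiquitin protease gene Usp29 (6730578 to 6967219, plus strand) and the maternal zinc finger gene Zim1 (6671269 to 6696450, minus strand). Peg3 had 2284, 1283 and 2317 counts, or 91.9, 56.9 and 91.7 CPM (80.2 ± 20.2 CPM). Zim1 had 155, 59 and 154 counts, or 6.24, 2.62 and 6.10 CPM (4.98 ± 2.05 CPM). Both genes, of opposite parental origin, were low in clone 2 and nearly equal in clones 1 and 3, with ranges of 0.68 for Peg3 and 1.001 for Zim1. Neither passed the edgeR goodness of fit test (adjusted p = 0.592 and 1).
Usp29 had 5, 3 and 7 counts. Peg3 and Usp29 start head to head, and their RefSeq windows share 263 bases at chr7:6730370-6730632, yet Peg3 took 99.8%, 99.8% and 99.7% of the counts of both genes. The Peg3 window is printed on the minus strand, at chr7:6730370-6730669 of GRCm38.p6, since nearly all of it is also the window of Usp29 on the other strand. It holds 13 CpG and no TGCCGC on either strand.
Peg3: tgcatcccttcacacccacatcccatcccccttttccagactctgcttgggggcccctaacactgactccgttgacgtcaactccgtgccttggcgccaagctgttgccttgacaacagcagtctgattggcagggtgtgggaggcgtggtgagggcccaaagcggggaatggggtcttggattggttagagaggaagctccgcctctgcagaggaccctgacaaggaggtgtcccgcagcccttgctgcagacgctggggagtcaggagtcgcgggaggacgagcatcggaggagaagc

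The Kcnq1ot1-Cdkn1c domain of chromosome 7 was represented by Cdkn1c alone at any height. Cdkn1c (143458339 to 143461050, minus strand) encodes p57, an inhibitor of cyclin-dependent kinases, from the maternal allele. It had 670, 374 and 583 counts, or 26.97, 16.6 and 23.1 CPM (22.2 ± 5.24 CPM), with clone 2 low and a range of 0.67. Its exons overlap Gm44732 on the opposite strand over 30.7% of their length, and the strand setting of the counting is not given in the sources used here. Slc22a18, a transporter gene, had 32, 23 and 14 counts, and Phlda2, a gene that restrains placental growth, had 7, 7 and 5. Ascl2, a trophoblast transcription factor gene, had 2, 0 and 0. Cdkn1c took between 98.2% and 99.2% of the counts of Cdkn1c and Phlda2. The non-imprinted or weakly imprinted neighbours Nap1l4, Tssc4 and Osbpl5 had means of 93.3, 78.7 and 109 CPM.

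The Snrpn-Ndn domain, also on chromosome 7, is transcribed from the paternal allele and is best known from neurons. Ndn (62346569 to 62350262, plus strand), the gene of the MAGE protein necdin, was the only abundant one among the domain's members with any counts. It had 2621, 1618 and 2689 counts, or 105, 71.8 and 106 CPM (94.6 ± 19.8 CPM). Clone 2 was again low and clones 1 and 3 alike, with a range of 0.56. Magel2, which encodes a related MAGE protein, had 16, 3 and 29 counts, and Ndn took between 98.9% and 99.8% of the counts of both genes. In contrast, Peg12, of the FRAT family, had 190, 221 and 279 counts, or 7.65, 9.80 and 11.0 CPM, and Mkrn3, which encodes a RING finger protein, had 21, 28 and 37 counts. Neither Peg12 nor Mkrn3 was low in clone 2, and Mkrn3 did not differ between libraries beyond counting noise (chi-square, adjusted p = 0.171).
Snrpn, a splicing protein gene, was listed with 0 counts in every clone, and so was Snurf, whose reading frame lies upstream in the same transcript. In RefSeq (GRCm38.p6), Snurf covers 59982495 to 60005199 of chromosome 7 and Snrpn 59982495 to 60450177, so both end at the same base. How the counter treated reads that fit both genes is not given in the sources used here, so the 0 is reported as listed and its cause was not tested.

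On proximal chromosome 6, the paternal genes Sgce (4674350 to 4747207, minus strand) and Peg10 (4747306 to 4760517, plus strand) start head to head. Sgce encodes epsilon-sarcoglycan and Peg10 is derived from a retrotransposon. Sgce had 1253, 1176 and 1241 counts, or 50.4, 52.2 and 49.1 CPM (50.6 ± 1.51 CPM). It was the steadiest of the tested members, with a range of 0.08 and no difference between libraries beyond counting noise (chi-square, adjusted p = 0.406). Peg10 had 1203, 1035 and 1820 counts, or 48.4, 45.9 and 72.1 CPM (55.5 ± 14.4 CPM), with clone 3 high and a range of 0.64. The share of Sgce in the sum of the pair was thus 51.0%, 53.2% and 40.5%, with 95% Wilson intervals of 49.0 to 53.0%, 51.1 to 55.3% and 38.8 to 42.3%. The intervals of clones 1 and 2 overlap, and that of clone 3 lies below both. Ppp1r9a, the neurabin gene of the same domain, had 58, 45 and 54 counts (2.16 ± 0.170 CPM), and Sgce took between 95.6% and 96.3% of the counts of Sgce and Ppp1r9a.

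Among loci with a single member, Zdbf2 varied most. Zdbf2, a paternally expressed zinc finger gene on chromosome 1 (63273265 to 63314576, plus strand), had 167, 536 and 323 counts in clones 1, 2 and 3, or 6.72, 23.8 and 12.8 CPM (14.4 ± 8.64 CPM). The 3 clones were all apart, with clone 2 highest and clone 1 lowest. The range was 1.68 on the log2(CPM + 1) scale, or 3.54-fold in CPM, larger than that of 98.9% of all genes tested (edgeR goodness of fit, adjusted p = 0.00202). Leaving out clone 1 or clone 2 ended the call (adjusted p = 0.181 and 0.498), and leaving out clone 3 did not (adjusted p = 0.0115). Clones 1 and 2 are also those with the lowest and the highest proliferation markers, and clone 2 has the most macrophage RNA.
RefSeq gives Zdbf2 a start at its annotated first exon and another far upstream, and both windows are shown because Zdbf2 varied most. They lie at chr1:63200108-63200407 (upstream) and chr1:63273019-63273318 of GRCm38.p6, both on the plus strand, and capitals mark the hexamer as above.
Zdbf2, upstream start: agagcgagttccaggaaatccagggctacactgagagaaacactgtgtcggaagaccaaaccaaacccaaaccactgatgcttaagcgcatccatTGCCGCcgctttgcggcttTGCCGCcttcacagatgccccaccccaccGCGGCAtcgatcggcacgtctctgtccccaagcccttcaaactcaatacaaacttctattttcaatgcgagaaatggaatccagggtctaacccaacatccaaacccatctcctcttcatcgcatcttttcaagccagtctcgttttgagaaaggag
Zdbf2, main start: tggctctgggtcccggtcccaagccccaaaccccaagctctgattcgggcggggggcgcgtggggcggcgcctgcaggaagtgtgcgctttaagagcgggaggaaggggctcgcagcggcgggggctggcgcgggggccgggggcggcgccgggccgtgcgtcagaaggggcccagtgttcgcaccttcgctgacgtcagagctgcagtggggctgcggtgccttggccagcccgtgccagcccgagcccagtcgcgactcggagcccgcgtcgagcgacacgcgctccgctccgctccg
The upstream window holds 15 CpG and 3 hexamers, a number reached by 0.234% of all windows, while the main window holds 38 CpG and none. The counts are per gene and do not tell the starts apart.

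Grb10 and Gnas were abundant and steady. Grb10 (chromosome 11), an adaptor that dampens insulin and IGF receptor signalling, had 615, 593 and 677 CPM (628 ± 43.2 CPM), and Gnas (chromosome 2), the gene of the stimulatory G protein alpha subunit, had 883, 779 and 836 CPM (833 ± 52.4 CPM). Their ranges of 0.19 and 0.18 were under the median of all genes tested. Both still differed between libraries by the chi-square test (adjusted p = 6.97e-31 for Grb10 and 2.81e-33 for Gnas). Antisense genes cover 22.0% of the Gnas exons.
Plagl1, Mest and Nnat were highest in clone 3 and lowest in clone 2. Plagl1 (chromosome 10), a zinc finger regulator of other imprinted genes, had 497, 356 and 652 counts (20.5 ± 5.03 CPM). Mest (chromosome 6), which encodes a hydrolase-like protein of embryonic mesoderm, had 428, 357 and 712 counts (20.4 ± 6.77 CPM), and Copg2 overlaps 23.1% of its exon length on the opposite strand. Nnat (chromosome 2), which encodes the membrane protein neuronatin, had 273, 214 and 505 counts (13.5 ± 5.68 CPM). Its range was 1.001, while Blcap, in whose intron it lies, had a range of 0.13. None of these 3 genes passed the edgeR goodness of fit test (adjusted p = 1, 0.513 and 0.299). Impact (chromosome 18), which encodes a regulator of translation, had 2833, 1572 and 2209 counts (90.4 ± 22.3 CPM), with clone 2 lowest and a range of 0.70. Nap1l5 (chromosome 6) had 27, 27 and 17 counts and did not differ between libraries beyond counting noise (chi-square, adjusted p = 0.199).

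Across loci, clone 2 was the low clone for most members. Of the 27 tested members, 17 (63.0%) were lowest in clone 2, 6 in clone 1 and 4 in clone 3, while 34.8% of all genes tested were lowest in clone 2, 39.4% in clone 1 and 25.8% in clone 3. The highest value fell in clone 1 for 12 members (44.4%), in clone 3 for 10 (37.0%) and in clone 2 for 5 (18.5%). Of all genes tested, 37.6% were highest in clone 1, 27.2% in clone 3 and 35.2% in clone 2. The members highest in clone 2 were Dlk1, Dio3, Sgce, Zdbf2 and Nap1l5, all paternally expressed, and of these only Dlk1 and Zdbf2 differed between libraries by the chi-square test. Of the 10 tested members of maternal origin, 8 were lowest in clone 2 and 8 highest in clone 1, with median deviations from the mean of the clones of 0.25, -0.23 and 0.04 on the log2(CPM + 1) scale in clones 1, 2 and 3. The 16 of paternal origin had medians of -0.15, -0.11 and 0.19, with 8 lowest in clone 2 and 8 highest in clone 3. The medians over all genes tested were -0.01, 0.00 and 0.01. The summed neural, cartilage and endothelial markers were lowest in clone 2 too, and these sums followed Nes, Col2a1 and Emcn. Tubb3, Acan, Sox9, Pecam1 and Cdh5 were highest there instead. All 3 arrest markers were lowest in clone 2, and the 8 macrophage and all 6 proliferation markers were highest there. The part of all these markers in the counts of members was not tested. Genes of a locus share chromatin and are not independent, and with 3 clones no relation between loci across clones was tested.

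**Figure D4:**
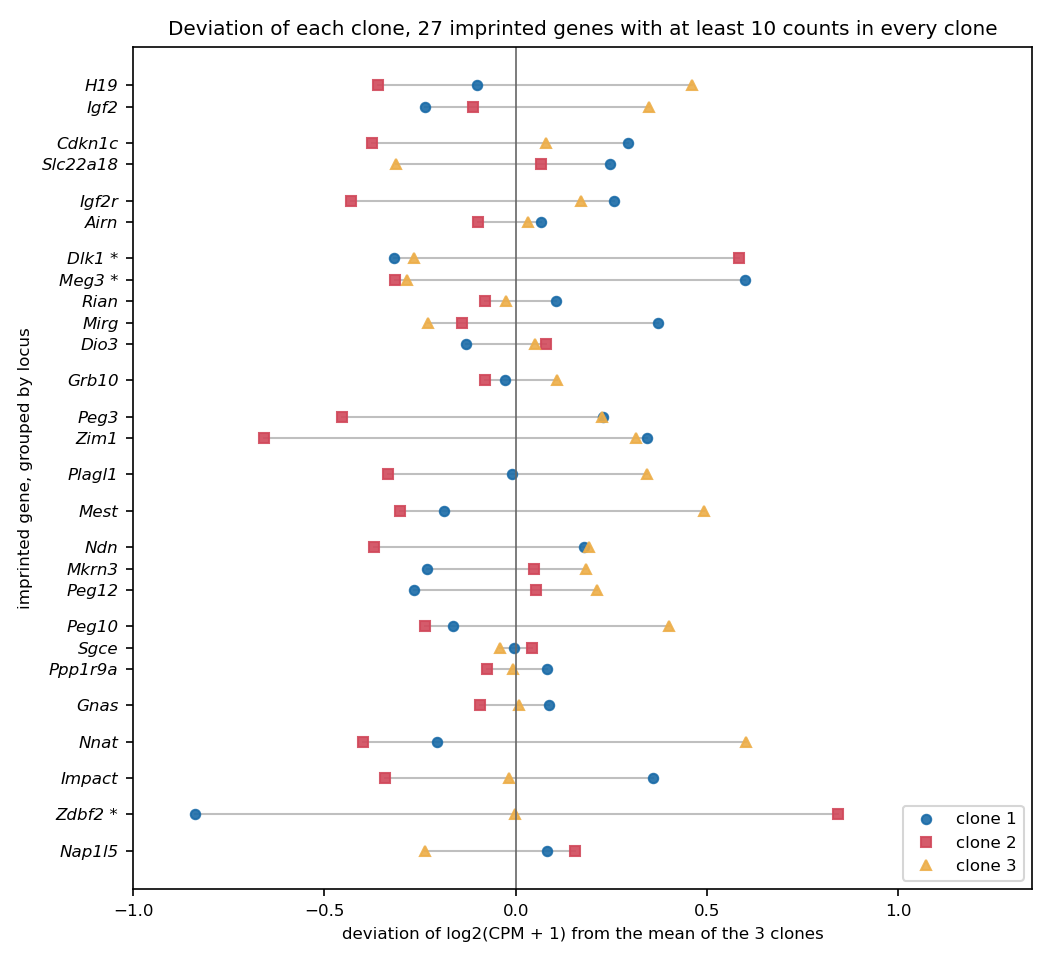
Deviation of log2(CPM + 1) in each clone from the mean of the 3 clones, for the 27 tested imprinted genes, grouped by locus, with a grey line over the range and an asterisk after genes called by the dispersion test. Clone 2 (squares) lies lowest for 17 genes, and Dlk1 and Zdbf2 are the called genes with clone 2 highest.

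Genes around the imprinted loci, whatever their own imprinting, were set beside the members. Of 19 neighbours, all in the table, 16 could be tested, 10 differed between libraries by the chi-square test (62.5% of all genes tested did, to be read beside the counts of every list here) and none was called by the edgeR goodness of fit test (0 also at an unadjusted p under 0.05). Their median range was 0.33. The highest were Cd81 at 749 ± 46.9 CPM, Osbpl5 at 109 ± 10.2 CPM, Nap1l4 at 93.3 ± 3.16 CPM and Tssc4 at 78.7 ± 18.0 CPM. A further list of 25 imprinted genes had 20 in the table and 15 tested, of which 9 differed between libraries and none was called by the goodness of fit test (1, Slc38a4, at an unadjusted p under 0.05), with a median range of 0.41. The highest were H13 at 395 ± 40.9 CPM, Slc38a4, an amino acid transporter gene, at 224 ± 70.7 CPM, Trappc9 at 33.4 ± 4.61 CPM and Dhcr7 at 32.4 ± 5.05 CPM. Slc38a4 had 4166, 4549 and 7665 counts and was highest in clone 3, as H19 and Igf2 were.
The machinery that keeps imprints was expressed. Of 13 such genes, 11 were tested and 9 differed between libraries. The highest were Trim28, the corepressor of KRAB zinc finger proteins, at 367 ± 11.4 CPM, Dnmt1, the maintenance methyltransferase, at 124 ± 37.8 CPM, Uhrf1, which brings DNMT1 to replicated DNA, at 78.4 ± 28.6 CPM and Zfp57 at 60.8 ± 10.04 CPM. Uhrf1, with 1134, 2223 and 2294 counts, was the only gene of this list called by the goodness of fit test (adjusted p = 0.0292), and it was lowest in clone 1, where proliferation genes were lowest as well. Zfp57 had 1791, 1193 and 1448 counts and was lowest in clone 2. Of the germline genes, Dnmt3l had 2, 2 and 1 counts and Dppa3 0, 4 and 0.
Of 8 genes of IGF2 and insulin signalling, all were tested, 6 differed between libraries and 1 was called by the goodness of fit test, Igf1, with 230, 495 and 207 counts (adjusted p = 0.0202). Igf1 was highest in clone 2, as the macrophage genes were. The highest of this list were Igf1r, the receptor through which IGF2 signals, at 318.5 ± 5.65 CPM, and Igf2bp2 at 92.7 ± 9.10 CPM, Insr at 60.5 ± 6.25 CPM and Igf2bp1 at 57.5 ± 6.77 CPM. Igf1r did not differ between libraries beyond counting noise (chi-square, adjusted p = 0.136), while Igf2 ranged over 0.58.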

How the data were processed

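RNA from 3 WT MEF clones was polyA-selected and sequenced by the authors, 1 library per clone. TopHat (2.0.0), run on Bowtie (0.12.7) with SAMtools (0.1.16), aligned the 86-nt reads with at most 2 mismatches and up to 5 hits per read, and HTSeq counted them. The authors deposited raw counts per gene symbol, with no coordinates. The methods name mm10 genes and the submitters' processing notes name mm9. The annotation, counting mode and strand setting are not given in the sources used here. Reads shared by overlapping genes or close copies can thus be lost or split.

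CPM were computed with TMM factors (edgeR 4.0.16, R 4.3.3). Genes with a count of 10 or more in each clone entered a Pearson chi-square test (2 degrees of freedom, scaled library sizes as the null) and edgeR's goodness of fit test with an intercept and the trended dispersion. Both used a Benjamini-Hochberg adjusted p under 0.05 over all genes tested. With 1 condition, no contrast between groups exists. Ranges use log2(CPM + 1), and shares have 95% Wilson intervals. Both tests were tested on simulated data. A p that misses the threshold does not show that levels were alike. Positions and exon lengths come from GENCODE M21 (GRCm38), which matched 99.7% of the genes, and promoter sequences from RefSeq. Shares, ranges and figures were made in Python (3.11.15) by means of pandas (2.3.3), scipy (1.17.1), numpy (2.4.6) and matplotlib (3.10.9).

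Every member found in the table is named. Of the comparison lists other than the marker lists, the 4 highest genes and those called by the goodness of fit test are named. Other genes of these lists were added after their values were seen. The marker lists are given mainly as sums, and those of their genes that are named were chosen after their values were seen. The lists were neighbours, further imprinted genes, imprint maintenance, IGF2 signalling and markers of macrophages, proliferation, arrest, fibroblasts, neurons, muscle, cartilage, endothelium and epithelium. The members and lists were chosen with earlier results of these data known. Alternatives were DESeq2 1.42.0 size factors, total counts, other thresholds and pseudocounts, the common dispersion, other lengths and leaving out each clone.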

Additional observations from a re-analysis of the deposited data

How the results depend on the processing

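The count of members expressed in every clone (23) and the count differing between libraries by the chi-square test (21) stayed within 1.5 times under all alternatives run. No member's mean CPM moved by more than its SD with DESeq2 size factors or total counts. Leaving out 1 of 3 clones cannot move a mean by more than its SD, so those settings are no check of the means. The goodness of fit calls were less firm. The count of 3 was 1 with the common dispersion, and between 0 and 2 when a clone was left out. Without clone 2, edgeR called 0 members and 5 of all genes tested, both at the adjusted threshold. There, 9 members had an unadjusted p under 0.05, for which no share over all genes was computed. Zdbf2 kept its call with the common dispersion, unlike Meg3 and Dlk1 (adjusted p = 0.388 and 0.432), and Meg3 lost its call whichever clone was left out. In all, 9 adjusted p-values of these 3 genes rose above the threshold, and 1 of another member (H19 without clone 1) fell below it. The median range of the members was 0.69 with a pseudocount of 0.1 CPM, and between 0.26 and 0.40 with a clone left out, for which fewer clones also leave less room.
The length that counts are divided by moved the shares. With no division, shares were 28.9% for H19 with Igf2, 14.2% for Dlk1 with Meg3, 99.7% for Igf2r with Airn, 98.8% for Cdkn1c with Phlda2, 99.75% for Peg3 with Usp29, 94.3% for Peg3 with Zim1, 48.2% for Sgce with Peg10 and 95.9% for Sgce with Ppp1r9a. With 1 transcript per gene (that of the longest coding sequence or, for non-coding genes, the longest), the share was 45.6% for H19 with Igf2. It was 41.9% for Meg3 with Rian and 77.5% for Sgce with Peg10, both on the other side of an equal share. Further shares were 97.9% for Igf2r with Airn, 99.7% for Peg3 with Usp29, 93.7% for Peg3 with Zim1 and 98.1% for Sgce with Ppp1r9a. With a clone left out, the share of H19 per kb (48.6% with all clones) lay between 47.4% and 50.7%, the latter without clone 2 and above an equal share. No share could be given for Cdkn1c with Kcnq1ot1, which was not in the table, or Snrpn with Ndn, where Snrpn had no counts. No paired analysis was possible because the samples form 1 group. Phlda2, Ascl2, Rtl1 and Usp29 had counts under 10 in every clone and Magel2 in clone 2, so these genes were not tested.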
